A study of Mus musculus with 6 samples.

Results

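Basal and immature mTEC genes, 10 in number, were followed in sorted medullary thymic epithelial cells (mTECs), the stromal cells that show self-antigens to developing T cells: Trp63, Itgb4, Itga6, Pdpn, Ly6a, Ly6d, Plet1, Tnfrsf19, Cd24a and Sox4. They were chosen by name, with earlier results of these data known. Of the 20443 genes in the deposited tables, these make up 10. The tables list 9 of them under these symbols. Plet1 has its row under the older symbol 1600029D21Rik, which a RefSeq table of the mouse gives as its synonym. The set is usually described by its surface molecules, but Trp63 and Sox4 encode nuclear transcription factors.

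The 3 Jmjd3-deficient libraries (cKO_262, cKO_263 and cKO_265) came from mice with floxed Jmjd3 alleles and Foxn1-cre, a Cre transgene driven in thymic epithelium. The 3 control libraries (Con_253, Con_261 and Con_264) came from mice with the floxed alleles and, as far as the labels name them, no Cre, so effects of the Cre transgene and of the Jmjd3 loss cannot be told apart. Both groups were C57BL/6 mice aged 4 weeks. Jmjd3, with the gene symbol Kdm6b, removes methyl groups from lysine 27 of histone H3. RNA of the sorted cells was amplified as cDNA before sequencing. Values are FPKM, fragments per kilobase of transcript and per 1000000 mapped fragments, as the authors deposited them. The number of reads behind each value is unknown. Wherever 3 values of a group are listed, they follow the order of its libraries given here.

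Basal epithelial cells sit on a basement membrane and hold it through integrins. The integrin chains alpha 6 and beta 4 pair into a receptor for laminin and anchor the cell through hemidesmosomes. The transcription factor p63, product of Trp63, maintains the basal layer of stratified epithelia and is needed for the renewal of thymic epithelial progenitors. In the thymus, several surface proteins of this set have been used to separate progenitor-like or immature medullary cells from the mature, Aire-expressing cells. All of these genes are also used by other cells, Ly6a and Pdpn by stroma and vessels and Cd24a by immature lymphocytes among them.

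The 10 genes did not all lie on the same side. Trp63, Cd24a and Itga6 were lower in all 3 cKO libraries than in any Con library, and Ly6d and Tnfrsf19 were higher in all 3. The other 5 overlapped between groups. Genes averaging 0.5 FPKM or more across the 6 libraries entered a test on log2(FPKM + 1) with limma, a linear model that shares the estimate of spread across genes. A gene was called at a Benjamini-Hochberg adjusted p under 0.05 over all 15720 tested genes. By this test 0 of the 10 were called, where 0.0763% of tested genes were called (0.0191% higher and 0.0573% lower in cKO). At an unadjusted limma p under 0.05, 2 of the 10 were higher and 4 lower in cKO, against 6.81% higher and 7.82% lower among all tested genes. The groups did not overlap for 21.5% of tested genes, 9.59% higher and 11.9% lower in cKO, so counts of 2 and 3 among 10 genes are few to set against that background.

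**Figure D1:**
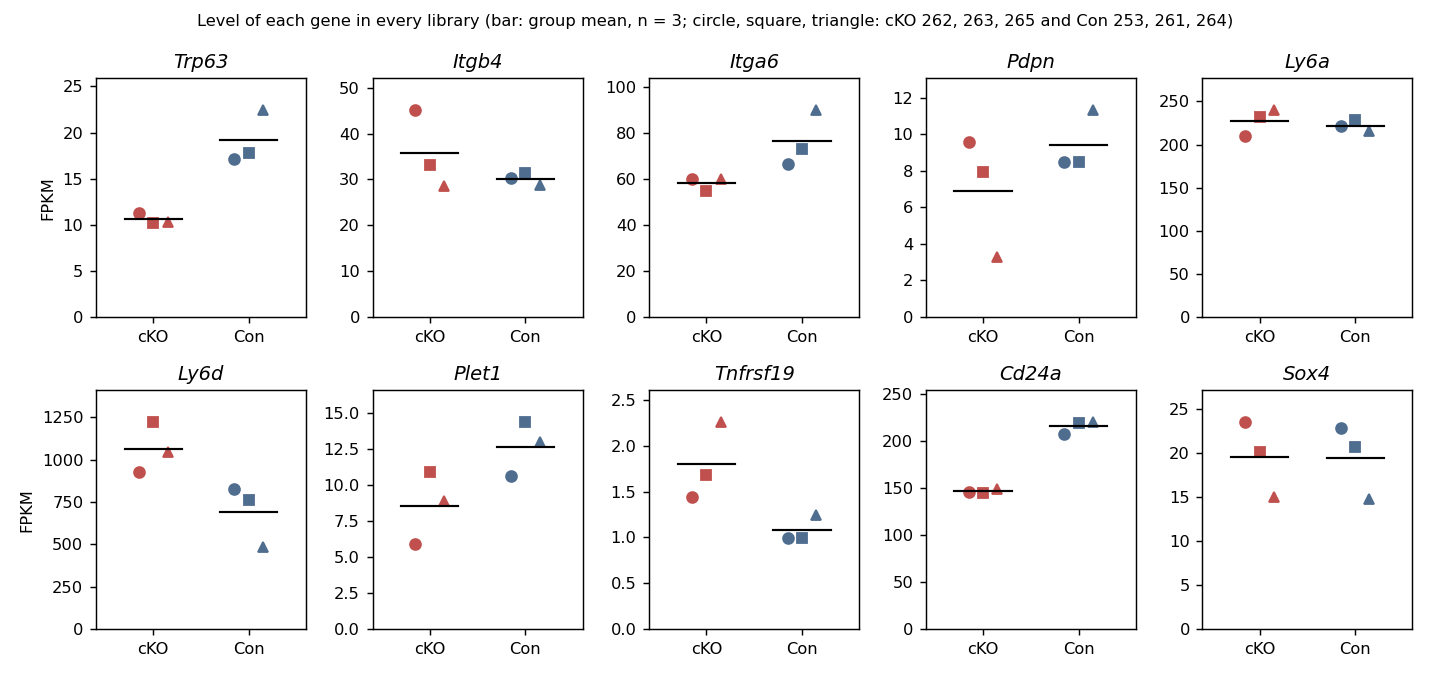
Level of each of the 10 genes in FPKM (vertical axis, from 0) in the 3 cKO and the 3 Con libraries, 1 point per library with the group mean as a bar. Cd24a lies between 145 and 149 FPKM in cKO, below its 207 to 221 FPKM in Con, while Ly6d lies between 926 and 1224 FPKM in cKO, above its 481 to 829 FPKM in Con.

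Some facts of the libraries bear on every value. The summed FPKM was 583466 to 641685 in cKO and 461791 to 543802 in Con libraries. The median over genes lay the other way, at 3.212 to 3.373 FPKM in cKO and 3.569 to 3.685 FPKM in Con. On the first principal component, with 42.8% of the variance, cKO_265 lay farthest from the others. Con_253 had 1.18 to 7.88 FPKM of 4 Y-linked genes, which did not pass 0.058 FPKM in any other library. Kdm6b itself was at 11.1, 11.6 and 8.67 FPKM in cKO and at 18.1, 17.1 and 9.998 FPKM in Con (limma adjusted p = 0.418). Con_264 lay below cKO_262 and cKO_263, so the groups overlapped. A gene-level value over all exons does not check the deletion where the deleted exons are unknown, as here. Epithelial genes lay in narrow ranges over the 6 libraries, with Krt8 between 1193 and 1262 FPKM and Epcam between 751 and 945 FPKM.

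By level, Ly6d came first in both groups, at a mean of 1065 FPKM in cKO and 690.3 FPKM in Con, and Tnfrsf19 came last, at 1.8 FPKM in cKO and 1.08 FPKM in Con. FPKM is scaled to transcript length, so levels of different genes can be ordered. In cKO the order was Ly6d, Ly6a, Cd24a, Itga6, Itgb4, Sox4, Trp63, Plet1, Pdpn and Tnfrsf19, and only Trp63 with Plet1 and Plet1 with Pdpn overlapped as neighbours. In Con the order was the same, with overlaps of Ly6a with Cd24a, Sox4 with Trp63 and Plet1 with Pdpn. Cd24a thus stood apart below Ly6a in cKO but overlapped with it in Con. Likewise Trp63 stood apart below Sox4 in cKO but overlapped with it in Con.

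Of the transcription factor genes, Trp63 had values that lay apart between groups. The gene (chromosome 16, 25683765 to 25892088, plus strand, in mm10 like all positions given) encodes p63 and was at 11.3, 10.1 and 10.3 FPKM in cKO, against 17.1, 17.8 and 22.5 FPKM in Con. Every cKO library lay below every Con library, and the 3 cKO libraries lay close together. The mean was 10.6 ± 0.618 FPKM in cKO and 19.1 ± 2.92 FPKM in Con (SD, n = 3 each), a ratio of 0.553. The log2 fold change of cKO over Con was -0.79 (SE 0.158, 95% interval -1.15 to -0.43), with an unadjusted p of 0.000866 that did not pass after adjustment (limma, adjusted p = 0.118). The intervals given for each gene are not adjusted for the number of genes. In bulk RNA, fewer cells that use a gene and less RNA per cell cannot be told apart.

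Trp63 is transcribed from more than 1 promoter and spliced into many forms, and the tables give it 8 rows, all with the same locus. Which transcript or promoter group each row stands for is not given in the sources used here, so the rows are numbered by their mean level. Row 1 was at 3.04, 3.48 and 2.24 FPKM in cKO, against 7.49, 8.83 and 10.3 FPKM in Con. Its share of the gene was 26.9%, 34.4% and 21.7% in cKO and 43.7%, 49.6% and 45.6% in Con, again without overlap. With only this row, the log2 fold change of Trp63 was -1.33 (limma adjusted p = 0.0876). Row 2 was at 2.6, 4.24 and 0 FPKM in cKO, against 4.7, 4.84 and 6.61 FPKM in Con. In cKO_265 rows 4 and 5 held 42.6% and 35.8% of the gene, at 4.4 and 3.7 FPKM, while neither passed 6.7% of the gene in any other library. The summed level of Trp63 in cKO_265 (10.3 FPKM) was nevertheless close to that of the other cKO libraries. Row 2 carries the status OK, the same in all libraries, so its 0 in cKO_265 is not flagged as a failed estimate. Whether a row listed at 0 means absent RNA is unknown.

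**Figure D2:**
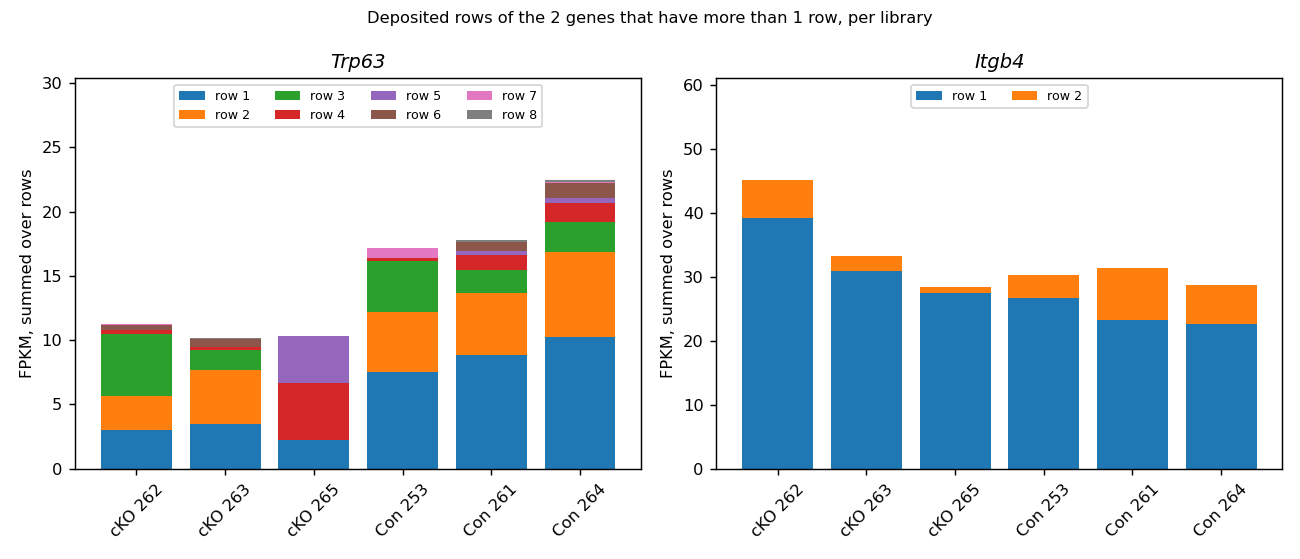
Deposited rows of Trp63 (8 rows, left) and Itgb4 (2 rows, right), stacked in FPKM for each of the 3 cKO and 3 Con libraries. Row 1 of Trp63 reaches 2.24 to 3.48 FPKM in cKO and 7.49 to 10.3 FPKM in Con, and cKO_265 has its Trp63 mainly in rows 4 and 5.

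The genes closest to Trp63 in pattern, by Pearson r of log2(FPKM + 1) over the 6 libraries, were Pcdh19 (0.997), Ginm1 (0.996), Trmt12 (0.996), Net1 (0.993) and Fn3k (0.992). All 5 were lower in cKO, with log2 fold changes between -0.86 for Net1 and -0.36 for Trmt12, and limma adjusted p from 0.0986 to 0.347. These genes were picked for likeness to Trp63, so their lower values in cKO follow largely from that choice. The 6 points fall into the same 2 groups for every gene, so such values describe these libraries only.

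The second transcription factor, Sox4, belongs to a group of Sox factors active in progenitor cells. It (chromosome 13, 28950730 to 28953682, minus strand) was at 23.6, 20.1 and 15 FPKM in cKO, against 22.8, 20.7 and 14.7 FPKM in Con. The groups overlapped almost entirely, with means of 19.6 ± 4.31 FPKM in cKO and 19.4 ± 4.19 FPKM in Con (SD, n = 3 each). The log2 fold change was 0.0097 (95% interval -0.49 to 0.51, limma adjusted p = 0.989), an interval wide enough to hold a difference of the size seen for Itga6. Its sign turned in 6 of 16 alternative settings, 3 of them with 1 library left out. Of the words of 50 bases in its GENCODE transcript, 54.1% also occur in Gm26735, a long noncoding RNA annotated on the opposite strand. That transcript has 4795 bases, more than the listed locus, which leaves out the RefSeq part from 28948919 on. The share need not hold for the part that was measured. Whether the reads were assigned by strand is not given in the sources used here.

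The integrin chains lay on different sides, and neither passed the test. Itga6 (chromosome 2, 71787083 to 71856758, plus strand) encodes the alpha 6 chain and was at 60.1, 55.0 and 60.2 FPKM in cKO, against 66.7, 73.3 and 90.3 FPKM in Con. All cKO libraries lay below all Con libraries, and Con_264 was the highest. For Itga6 the log2 fold change was -0.38 (SE 0.151, 95% interval -0.72 to -0.035, limma adjusted p = 0.296). Itgb4 (chromosome 11, 115974725 to 116012719, plus strand) encodes the beta 4 chain and was at 45.2, 33.2 and 28.5 FPKM in cKO, against 30.4, 31.4 and 28.8 FPKM in Con. The groups overlapped, and cKO_262 alone stood high, so that the log2 fold change of 0.21 (95% interval -0.2 to 0.62, limma adjusted p = 0.638) was 0.028 without that library.

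The table locus of Itgb4 runs past the RefSeq end of the gene at 116008412 and overlaps Galk1 on the opposite strand. Itgb4 has 2 rows. Row 1 was at 39.3, 30.9 and 27.5 FPKM in cKO, against 26.8, 23.3 and 22.6 FPKM in Con, with no overlap. Row 2 was at 5.98, 2.34 and 1.01 FPKM in cKO and at 3.59, 8.1 and 6.16 FPKM in Con, with overlap. With row 1 in place of the sum, the log2 fold change of Itgb4 was 0.4 (limma adjusted p = 0.347).

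The level of Itga6 divided by that of Itgb4 within a library is not altered by multiplying all values of a library by a single factor. It was 1.33, 1.65 and 2.11 in cKO, against 2.2, 2.34 and 3.14 in Con. All cKO libraries lay below all Con libraries, although cKO_265 and Con_253 were close. The difference of the log2 ratios was -0.6, and the exact permutation test (2-sided) gave p = 0.1, the smallest value that 3 against 3 libraries allow. It stayed between -0.77 and -0.43 when any 1 library was left out. This ratio was set up after the values had been seen. The other beta chain that pairs with alpha 6 is beta 1, and its gene Itgb1 was at 31.2, 30.4 and 32.2 FPKM in cKO and at 28.9, 33.7 and 42.1 FPKM in Con, with overlap (named for this pairing).

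Among the other genes of the basement membrane and the hemidesmosome, 26 of 28 were tested, 0 were called (limma), and an unadjusted p under 0.05 was found for 1 higher and 3 lower genes. The list's median log2 fold change was -0.023, where that of all tested genes was -0.035. The gene with the smallest p was Col17a1, the transmembrane collagen of hemidesmosomes, at 151, 152 and 193 FPKM in cKO, against 106, 101 and 74.7 FPKM in Con. Its cKO libraries all lay above its Con libraries (log2 fold change 0.82, limma adjusted p = 0.125). Next came the laminin chain gene Lamb1, at 4.21 ± 1.0 FPKM in cKO and 6.92 ± 1.43 FPKM in Con (SD, n = 3 each), also without overlap (limma adjusted p = 0.24). Col17a1 was thus higher in cKO where Itga6 was lower, while Itgb4 overlapped between groups, and none of these 3 genes passed the test.

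Cd24a encodes a small, heavily glycosylated protein held in the membrane by a lipid anchor. The gene (chromosome 10, 43579169 to 43584265, plus strand) was at 146, 145 and 149 FPKM in cKO, against 207, 219 and 221 FPKM in Con. Neither group spread far, with a coefficient of variation of 1.5% in cKO and 3.38% in Con, the lowest in cKO among the 10 genes. The mean was 147 ± 2.2 FPKM in cKO and 216 ± 7.31 FPKM in Con (SD, n = 3 each), a ratio of 0.68. The log2 fold change was -0.55 (SE 0.121, 95% interval -0.83 to -0.28), with an unadjusted p of 0.00154 that did not pass after adjustment (limma, adjusted p = 0.125). It stayed between -0.58 and -0.54 when any 1 library was left out. Of its words of 50 bases, 2.75% also occur in Gm6212.

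Cd24a and Trp63 were called in the same 2 of 16 alternative settings. With each library scaled to a summed FPKM of 1000000, the log2 fold changes were -0.85 for Cd24a and -1.1 for Trp63 (limma adjusted p = 0.0287 and 0.0399), beside a median of -0.3 over all tested genes. That setting, with the filter applied after scaling, called 207 of 16868 tested genes. With limma's arrayWeights, which weight libraries by their fit, the log2 fold changes were -0.58 for Cd24a and -0.74 for Trp63 (adjusted p = 0.00474 and 0.00508). ArrayWeights called 3025 of 15720 tested genes. Centred on the mean log2 level of Epcam, Krt8, Krt18 and Cdh1, a setting added after the data were seen, they were -0.64 and -0.87, with 0 of the 10 genes called (limma) and a median of -0.12 over all tested genes. Scaling to the same sum also moved Itga6 to -0.68, Plet1 to -0.85, Pdpn to -0.8 and Ly6d to 0.36, none of them called. Without both Con_253 and cKO_265, the libraries that stood apart, the log2 fold change was -0.84 for Trp63, -0.59 for Cd24a, -0.49 for Itga6, 0.81 for Ly6d and 0.28 for Tnfrsf19, with 0 of the 10 genes called (limma).

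Among the genes closest to Cd24a in pattern over the 6 libraries were Clec4g, Tox3, Il17rb and Alyref, with Pearson r between 0.993 and 0.994. These 4 were lower in cKO without overlap, from -0.56 for Alyref to -1.02 for Il17rb on the log2 scale (limma adjusted p from 0.0774 to 0.14). They were picked for likeness to Cd24a over the same libraries, so their lower values in cKO follow largely from that choice. Genes of tuft-like mTECs, a chemosensory cell type of the medulla, had lower values in the same libraries. Their 10 listed markers summed to 45.4 to 60.3 FPKM in cKO and to 134 to 164 FPKM in Con, with 10 of 10 lower in cKO and 3 of them called (limma). The part of this cell type in the values of Cd24a and Trp63 was not tested.

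The 2 Ly6 genes encode small proteins with the same kind of lipid anchor. Ly6d (chromosome 15, 74762056 to 74763567, minus strand), known as a marker of early B-lineage cells and of keratinocytes, was at 926, 1224 and 1044 FPKM in cKO, against 829, 761 and 481 FPKM in Con. All cKO libraries lay above all Con libraries, with Con_264 far below the others. The mean was 1065 ± 150.2 FPKM in cKO and 690.3 ± 184 FPKM in Con (SD, n = 3 each), a ratio of 1.54. For Ly6d the log2 fold change was 0.65 (SE 0.226, 95% interval 0.14 to 1.17, limma adjusted p = 0.242). It was 0.41 without Con_264 and 0.17 under quantile normalization.

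Ly6a (chromosome 15, 74994877 to 74998031, minus strand), known as Sca-1 and used as a marker of stem and progenitor cells in many tissues, was at 210, 232 and 241 FPKM in cKO, against 221, 228 and 216 FPKM in Con. The groups overlapped, with means of 228 ± 15.9 FPKM in cKO and 222 ± 6.26 FPKM in Con (SD, n = 3 each). The log2 fold change was 0.036 (95% interval -0.26 to 0.33, limma adjusted p = 0.926), and it was negative under 3 of 4 other scalings and without cKO_265. Of the words of 50 bases in Ly6a transcripts, 19% also occur in other genes, Ly6c1 and Ly6i among them, so reads could be split between relatives. For Ly6d the share was 0%.

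In the wider Ly6 family, which includes both, 25 of 27 genes were tested and 0 were called (limma), with 4 higher and 3 lower at an unadjusted p under 0.05 and a median log2 fold change of 0.058. Gpihbp1, which anchors lipoprotein lipase in capillaries, was at 10.5, 14.8 and 21.2 FPKM in cKO, against 3.73, 7.21 and 6.68 FPKM in Con, with no overlap. Its log2 fold change was 1.25 (limma adjusted p = 0.135). Lypd6, encoding a membrane-anchored relative, was at 1.26, 2.12 and 1.37 FPKM in cKO, against 3.21, 3.93 and 3.0 FPKM in Con (log2 fold change -0.77, limma adjusted p = 0.157).

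Tnfrsf19 encodes a receptor of the tumour necrosis factor receptor family that is also known from stem cells of the gut and hair follicle. The gene (chromosome 14, 60963834 to 61046855, minus strand) was at 1.44, 1.68 and 2.26 FPKM in cKO, against 0.995, 0.989 and 1.24 FPKM in Con. All cKO libraries lay above all Con libraries, at the lowest level of the set. A long noncoding RNA, Gm41168, is annotated on the opposite strand of its locus. For Tnfrsf19 the log2 fold change was 0.42 (SE 0.181, 95% interval 0.0078 to 0.83, limma adjusted p = 0.334). The added 1 shrinks this value, and with 0.1 added in its place the log2 fold change was 0.67 (limma adjusted p = 0.344).

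Plet1 encodes the surface antigen of antibodies that mark early thymic epithelial progenitors. Its row (chromosome 9, 50488799 to 50505639, plus strand) was at 5.92, 10.9 and 8.9 FPKM in cKO, against 10.7, 14.4 and 13.0 FPKM in Con. The groups overlapped only through cKO_263, which lay just above Con_253. For Plet1 the log2 fold change was -0.54 (SE 0.224, 95% interval -1.05 to -0.03, limma adjusted p = 0.313). It ranged from -0.72 without cKO_263 to -0.33 without cKO_262. The antisense gene Plet1os lies in the same locus, and 9.85% of the words of 50 bases of Plet1 occur in other genes, Plet1os first. The listed locus starts before the RefSeq start of Plet1 at 50494525.

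Pdpn encodes podoplanin, a mucin-type glycoprotein of lymphatic vessels, of fibroblasts and of a progenitor-like mTEC population at the border of cortex and medulla. The gene (chromosome 4, 143267422 to 143299507, minus strand) was at 9.56, 7.9 and 3.27 FPKM in cKO, against 8.46, 8.46 and 11.3 FPKM in Con. The groups overlapped, and cKO_265 alone stood far below the rest, which gave the largest coefficient of variation of the set, 47.2% in cKO beside 17.7% in Con. For Pdpn the log2 fold change was -0.49 (95% interval -1.22 to 0.25, limma adjusted p = 0.524), and -0.093 without cKO_265.

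**Figure D3:**
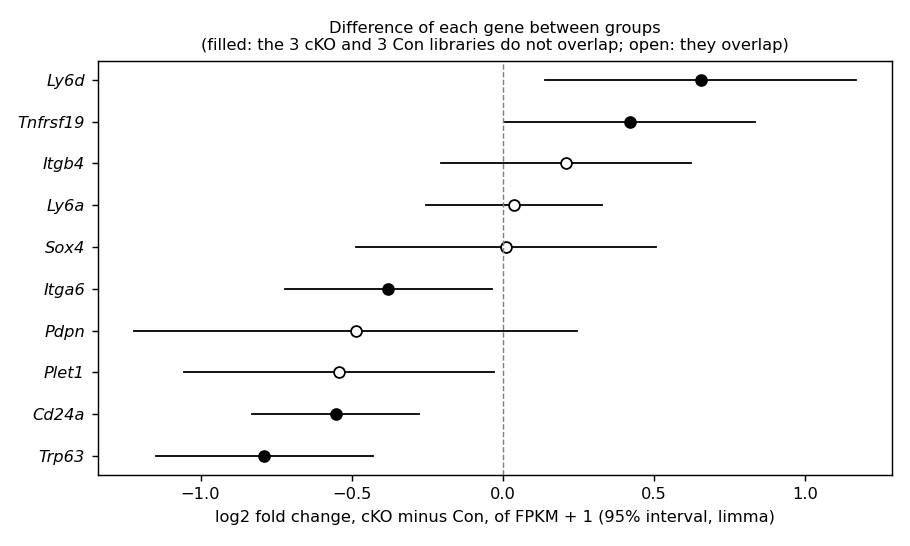
Log2 fold change of each of the 10 genes, cKO minus Con on the log2(FPKM + 1) scale, with its unadjusted 95% interval from limma. Filled points, where the 3 cKO and 3 Con libraries do not overlap, are Ly6d and Tnfrsf19 on the right and Itga6, Cd24a and Trp63 on the left, from 0.65 for Ly6d to -0.79 for Trp63.

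The intervals of 4 genes spanned 0 (Itgb4, Ly6a, Sox4 and Pdpn), and they do not show that these genes were alike in both groups. That of Ly6a was the narrowest of the 4. Over the 10 genes, 5 log2 fold changes were positive and 5 negative, with a median of -0.18. Among all 15720 tested genes 7123 were positive and 8597 negative.

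**Figure D4:**
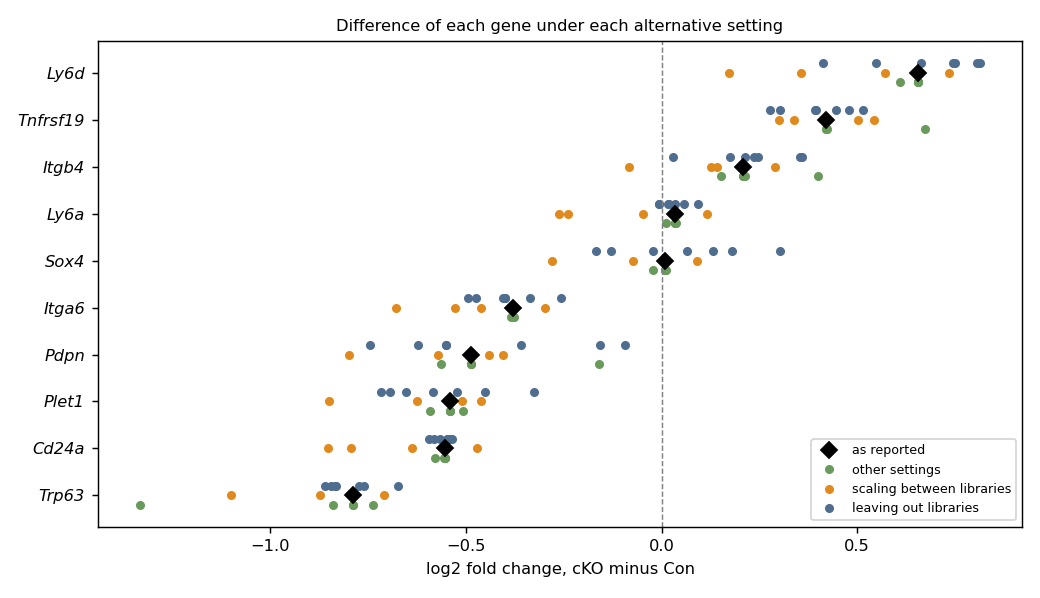
Log2 fold change, cKO minus Con, of each of the 10 genes as reported (diamond) and under each alternative setting (points, coloured by leaving out libraries, by scaling between libraries or by other settings). Trp63, Cd24a, Plet1, Pdpn and Itga6 lie below 0 and Ly6d and Tnfrsf19 above 0 in every setting shown, while Itgb4, Ly6a and Sox4 have points on both sides of 0.

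Genes of the wider program around the set had values on both sides. Of 28 relatives of p63 and genes often cited as its targets, 27 were tested and 0 were called (limma), with 1 higher and 3 lower at an unadjusted p under 0.05. Of these 27 genes 9 had higher and 18 lower values in cKO, with a median log2 fold change of -0.12. Without overlap between groups, 0 were higher and 7 lower in cKO, against 9.59% higher and 11.9% lower among all tested genes. Fgfr2, a receptor for fibroblast growth factors that thymic epithelium needs to grow, was at 24.5, 15.9 and 16.9 FPKM in cKO, against 25.7, 26.0 and 26.0 FPKM in Con (limma adjusted p = 0.302). The groups of Fgfr2 did not overlap, although cKO_262 came close to Con.

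Other genes often used for immature or intertypical mTECs lay on both sides, with the larger differences among those lower in cKO. Of 26 listed, 23 were tested and 0 were called, with limma adjusted p of 0.0986 or more. At an unadjusted limma p under 0.05, 2 were higher and 8 lower, beside 6.81% higher and 7.82% lower among all tested genes. Log2 fold changes were positive for 11 and negative for 12, from -1.6 to 0.63, with a median of -0.14. The smallest p belonged to Apoe, the apolipoprotein, and Igfbp5, which binds insulin-like growth factors. Igfbp5 was at 40.6, 23.7 and 14.4 FPKM in cKO, against 77.6, 68.1 and 81.2 FPKM in Con, with no overlap (log2 fold change -1.6, limma adjusted p = 0.118). Apoe was at 167, 135 and 129 FPKM in cKO, against 347, 334 and 241 FPKM in Con, with no overlap (log2 fold change -1.08, limma adjusted p = 0.0986). The list shares Krt5, Krt14 and Krt15 with the p63 list.

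In the Sox family, which includes Sox4, 10 of 15 genes were tested and 0 were called (limma), with 0 higher and 2 lower at an unadjusted p under 0.05 and a median log2 fold change of -0.18. The pair were Sox18 and Sox7, factors of vessel walls. Sox18 was at 1.84, 2.73 and 1.82 FPKM in cKO, against 4.41, 4.98 and 11.6 FPKM in Con, with no overlap (log2 fold change -1.26, limma adjusted p = 0.156). Sox7 was at 1.52 ± 0.583 FPKM in cKO and 2.55 ± 0.325 FPKM in Con (SD, n = 3 each), also without overlap.

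**Figure D5:**
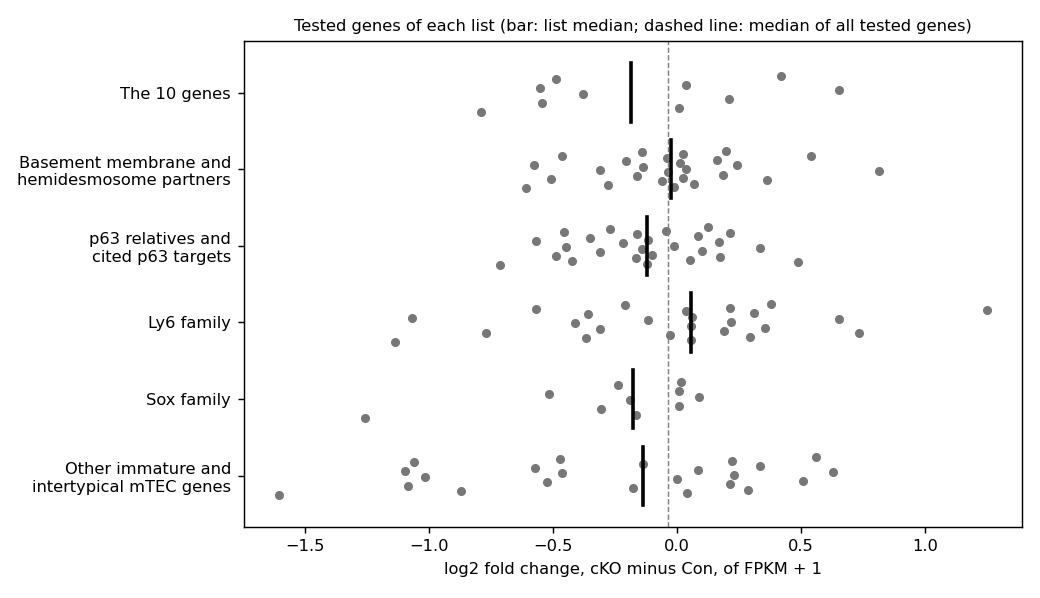
Log2 fold change, cKO minus Con, of the tested genes (points) of the 10-gene set and of 5 related lists, with each list's median as a bar and the median of all tested genes (-0.035) as a dashed line. List medians run from -0.18 for the 10 genes and for the Sox family to 0.058 for the Ly6 family, and every list has genes on both sides of 0.

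Markers of the sorted cells and of other cells were read beside these values. Mature mTEC markers summed to 15087 to 18438 FPKM in cKO and 16590 to 18294 FPKM in Con. Cd74 made up 46.4% to 50.2% of each of these sums. In the same list, Aire had a mean of 426 FPKM in cKO and 326 FPKM in Con, and Fezf2 of 220 FPKM in both, each with overlap. Markers of thymic epithelium summed to 4516 to 4930 FPKM in cKO and 4021 to 4563 FPKM in Con. Markers of the labelled cell type were thus present. Markers of cortical epithelium summed to 1079 to 1525 FPKM in cKO and 949 to 1151 FPKM in Con, with overlap. Tbata made up 32.3% to 47.8% of each of these sums. The other 7 genes summed to 578 to 797 FPKM in cKO and 628 to 683 FPKM in Con, also with overlap. Most of this came from Ctsl (means 273 FPKM in cKO and 300 FPKM in Con) and Ccl25 (360 FPKM and 282 FPKM). Psmb11 was at means of 4.53 FPKM in cKO and 4.11 FPKM in Con. Taken alone, Tbata was higher and Dll4 and Cxcl12 were lower in cKO without overlap, and the rest overlapped. Markers of vessels, which also use Ly6a, Pdpn and Sox18, summed to 19.0 to 28.2 FPKM in cKO and 23.3 to 30.7 FPKM in Con over 11 genes, and those of fibroblasts to 44.0 to 50.1 FPKM in cKO and 50.3 to 56.2 FPKM in Con over 8 genes. Without Esam, their highest gene, the vessel markers summed to 11.5 to 13.0 FPKM in cKO and 15.0 to 18.7 FPKM in Con, without overlap. The fibroblast sums did not overlap with all 8 genes, but lay at 50.1 FPKM in cKO and 50.3 FPKM in Con where closest. Taken alone, each of the 7 tested fibroblast genes overlapped, with 3 higher and 4 lower in cKO. Among those lower was Thy1, at a mean of 13.2 FPKM in cKO and 17.5 FPKM in Con. Without Dcn, the highest gene of the list, the other genes summed to 25.8 to 35.1 FPKM in cKO and 32.6 to 39.9 FPKM in Con, with overlap. The part of vessels and fibroblasts in the values of Ly6a, Pdpn and Sox18 was not tested.

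Lymphoid markers touch Cd24a and Ly6d. Those of thymocytes summed to 41.9 to 47.6 FPKM in cKO and 52.8 to 92.1 FPKM in Con over 14 genes, without overlap, and 10 of 11 tested were lower in cKO. Those of B cells summed to 41.7 to 57.2 FPKM in cKO and 39.8 to 52.7 FPKM in Con over 6 genes, with overlap. Cd79b made up most of these sums, and the other 5 genes summed to 4.99 to 10.3 FPKM in cKO and 10.5 to 11.1 FPKM in Con, without overlap. Those of macrophages and dendritic cells summed to 274 to 306 FPKM in cKO and 353 to 400 FPKM in Con over 9 genes, without overlap. Lyz2 made up 88.1% to 91.9% of each of these sums, and the other 8 genes summed to 26.8 to 32.8 FPKM in cKO and 28.6 to 37.5 FPKM in Con, with overlap. The 3 erythroid genes with a row summed to 7.53 to 8.81 FPKM in cKO and 8.19 to 9.87 FPKM in Con. In these lists 0 genes were called (limma), against 3 of the tuft-like list. At an unadjusted p under 0.05 there were 2 of 15 mature mTEC genes higher, 0 of 9 epithelial, 1 higher and 1 lower of 8 cortical, 5 lower of 11 thymocyte, 1 lower of 10 vessel, 0 of 7 fibroblast, 1 lower of 7 myeloid, 0 of 6 B-cell and 0 of 2 erythroid genes. No listed marker with a row was at 0 in all 6 libraries, and Rag1, Rag2 and Themis were below a mean of 0.5 FPKM. The part of thymocytes, B cells and myeloid cells in the values of Cd24a and Ly6d was not tested.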

How the data were processed

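Transcriptomes of mTECs in 3 cKO and 3 Con libraries were compared. Per the submitters' processing notes, the authors used Bowtie2 2.2.5 and Cufflinks with mm10. The authors deposited FPKM values, 1 table of 25025 rows per library. Neither the annotation, the strand setting nor the Cufflinks version is given in the sources used here. Rows of a symbol were summed, and 44 rows whose symbols had become calendar dates were left out. Table starts were raised by 1 base, since 9033 of 18840 symbols matched by name and chromosome began exactly 1 base before the RefSeq start. Read counts were not used here, so depth is unknown and no counting error can be given. Each library carries its own replicate number, and p-values weigh the difference between groups against the spread between these libraries.

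The test was limma 3.58.1 (R 4.3.3, trended eBayes, 2-sided) on log2(FPKM + 1) of genes averaging 0.5 FPKM or more, and p-values were adjusted by Benjamini-Hochberg over all of them. Permutation tests used scipy 1.17.1. Shared sequence was counted as words of 50 bases in GENCODE transcripts on both strands. The members and lists were chosen with earlier results of these data known. Named were all members, Kdm6b, the called genes of each related list or else the 2 with the smallest unadjusted p outside the members, and the 5 genes most like Trp63 and Cd24a, without predicted genes. Some genes that this rule names are not reported here. Lists were described by counts and medians, with no set test.

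Alternatives were scaling to a sum of 1000000, quantile normalization, centring on the median, arrayWeights, the highest row of a symbol, a filter at 5 FPKM or none, 0.1 as pseudocount, leaving out each library, leaving out both Con_253 and cKO_265, and, added after the data were seen, centring on 4 epithelial genes. Sums of marker lists without their highest gene were also added after the data were seen.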

Additional observations from a re-analysis of the deposited data

How the results depend on the processing

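The main count of 12 called genes among 15720 tested was 207 among 16868 with libraries scaled to 1000000. It was 21 when centred on epithelial genes and 3025 among 15720 with arrayWeights. With 1 library left out it was 2 to 23 (2 without any 1 Con library, 23 without cKO_262, 19 without cKO_265). Of the 10 members, 0 were called as reported, 2 when scaled to 1000000 (Trp63 and Cd24a) and 5 with arrayWeights (also Itga6, Ly6d and Tnfrsf19), and 0 in every other setting run. Among related lists, arrayWeights called 4 basement membrane, 6 p63, 7 Ly6, 2 Sox and 11 immature genes, scaling to 1000000 called 3 immature genes and quantile normalization 1. With 1 library left out, the Ly6 and immature lists had 0 to 1 called, the 1 in each case without cKO_262. The cause of these differences was not tested.

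Some members turned in sign. Itgb4 was at -0.083 when scaled to 1000000. Ly6a was at -0.24 under quantile normalization, -0.26 when scaled to 1000000, -0.048 when centred on epithelial genes, -0.0075 without both Con_253 and cKO_265, and between -0.0053 and 0.092 with 1 library left out. Sox4 was at -0.28 when scaled to 1000000, -0.074 when centred on epithelial genes, -0.022 with arrayWeights, and between -0.17 and 0.18 with 1 library left out. The other 7 members kept their direction in every setting in which they were tested. Tnfrsf19 was not tested at a mean of at least 5 FPKM. No paired analysis was possible because the groups share no replicate numbers. Unknown depth limits the low genes most, Tnfrsf19 first.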
